A study of Mus musculus with 12 samples.

Results

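The effect of losing Srf that neonatal and adult cardiomyocytes (CMs) had in common was described over all 12 of the 12 samples of the series, by joining the counts of both stages by gene symbol and estimating 1 knockout (KO) effect per gene beside the difference between the stages. All animals had a mixed background, a Rosa FP reporter, whose fluorescence marks cells in which Cre recombinase acted, and an injection of AAV9-cTNT-Cre, in which the promoter of cardiac troponin T limits Cre to CMs, at a low dose that reaches a minority of them. KO animals were Srf-flox/flox, and control (CTRL) animals were Srf-flox/+, so that Cre left CTRL CMs an intact copy. The neonatal groups were injected at postnatal day (P) 1 and collected at P14, and the adult groups were injected at P60 and collected at P90, with 3 samples in each of the 4 groups. Fluorescent CMs were sorted by flow cytometry, and their RNA was amplified as cDNA before sequencing, so that the KO cells came from hearts in which most CMs had kept Srf. Stage, count table and the time from injection to collection cannot be told apart. Nothing in the labels says how the replicates of a group relate to each other, so p-values measure the spread between these samples.

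Serum response factor (SRF) is a transcription factor of muscle and non-muscle cells that binds a short DNA element called the CArG box, which has a pair of C bases, a run of A and T bases, and a pair of G bases. It works with partner proteins. Myocardin-related transcription factors (MRTFs) enter the nucleus when free actin monomers are scarce and act with SRF at genes of the actin cytoskeleton and of contraction. Ternary complex factors, which are ETS proteins activated by MAP kinase, act with SRF at immediate early genes. In CMs its known targets include cardiac actin and other sarcomere genes.

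Because the genes that moved at both stages include several classical SRF targets, the promoters of 10145 of the 12841 genes tested could be read from RefSeq (GRCm38.p6, the assembly of mm10; 9141 matched by symbol and 1004 by an older symbol), each as the 250 bases before and 50 bases after the start of the gene. The CArG box was searched on both strands, on which its pattern reads the same. The stretches below come from genes that fell at both stages, were picked after their values were seen, and are shown 5′ to 3′ along the gene with each CArG box in capitals.
Srf, chr17:46556210-46556269, minus strand: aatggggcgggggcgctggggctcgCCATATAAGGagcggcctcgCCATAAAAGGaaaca
Actc1, chr2:114052888-114052947, minus strand: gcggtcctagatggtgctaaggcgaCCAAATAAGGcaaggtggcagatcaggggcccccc
Actg1, chr11:120348551-120348610, minus strand: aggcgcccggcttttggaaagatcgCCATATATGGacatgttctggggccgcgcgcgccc
Myl3, chr9:110763568-110763627, plus strand: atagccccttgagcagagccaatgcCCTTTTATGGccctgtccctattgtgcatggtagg
Fbxl22, chr9:66514781-66514840, minus strand: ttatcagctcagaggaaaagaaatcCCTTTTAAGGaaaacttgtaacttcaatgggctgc
Cnn2, chr10:79988519-79988578, plus strand: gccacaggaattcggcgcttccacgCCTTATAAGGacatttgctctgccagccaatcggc
The box lay 77 and 57 bases before the start of Srf itself, and 42 bases before that of Actc1. It was 85 bases before the start of Actg1, 80 before Myl3, 217 before Fbxl22 and 51 before Cnn2. A CArG box was found in 18 of the 349 promoters of genes called lower in KO, or 5.16%, against 488 of the 27025 genes in the promoter table, or 1.81%. It was found in 5 of 362 promoters of genes called higher (1.38%), and in 162 of the 10145 promoters of all genes tested (1.60%). The 18 include Srf itself, the targeted gene, and the 27025 genes include genes that were not tested here. A promoter was in the table for 82.3% of the genes called lower, 78.9% of those called higher and 79.0% of all tested, and since the last 2 lie under the minimum of 80% set here, their shares are given as values only and the check is void for them. A match is a description of the letters in this window and was not tested as a site of SRF binding.

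Depth, sample identity and cell content were examined before the gene results. Total counts per sample ran from 9740389 to 23103460, and a floor of 3 counts was worth between 0.130 and 0.308 CPM, the library-size-scaled count used here for levels, and covers counting error only. Sex is not in the labels, and 3 of the 12 libraries held more than 100 Y-linked counts: replicate 1 of P14 CTRL, replicate 3 of P14 KO and replicate 3 of P90 CTRL. P14 KO replicate 3 also had the lowest level of Srf of all libraries, and the lowest among P14 libraries of Acta2, Actc1, Actg1, Pdlim7 and Cnn2. Markers of the labelled cell type were abundant, since 10 CM markers summed to between 84198 and 122460 CPM in every library. This sum was lower in KO without overlap at both stages. In P14 KO it was at most 88275 CPM where P14 CTRL had at least 116976, and in P90 KO at most 107800.0 CPM where P90 CTRL had at least 108671. The direction at P90 rested on Myh6. Without it the sum ran from 59517 to 70124 CPM in CTRL and from 48116 to 52092 CPM in KO at P14, and from 57814 to 62727 CPM and 59550 to 70426 CPM at P90, where the groups overlapped. Of the 10 markers 4 were called lower (Myl3, Myh6, Ryr2 and Ttn), and the median log2 fold change of the 10 was -0.39 at P14 and 0.09 at P90. Actn2 was not called but lay higher in every KO library at both stages (0.27 at P14 and 0.16 at P90), and Tnnt2, Tnni3 and Mb lay higher in every KO library at P90, with log2 fold changes of 0.29, 0.33 and 0.34. At P14 Tnni3 went the other way, at 4993, 6936 and 5993 CPM in CTRL and 3916, 4486 and 4062 CPM in KO. Tnnt2 and Mb overlapped between the genotypes at P14. In such bulk samples fewer cells of a type and less RNA per cell cannot be told apart.

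The targeted gene fell to a similar extent at both stages. Srf (chromosome 17, 46546839 to 46556162, minus strand, mm10 in GENCODE) was at 63.95, 57.1 and 49.4 CPM in CTRL and 32.1, 27.5 and 9.75 CPM in KO at P14. The P90 libraries held 71.2, 59.1 and 81.1 CPM in CTRL and 32.9, 28.9 and 28.1 CPM in KO. Every KO library lay below every CTRL library of its stage, and P14 KO replicate 3 was the lowest of the 12. The common log2 fold change was -1.27 ± 0.21 (SE), with an edgeR adjusted p of 0.00547, and it was -1.30 ± 0.30 (SE) at P14 and -1.24 ± 0.30 (SE) at P90. Without P14 KO replicate 3 it was -1.10, and it passed the threshold in 22 of 22 alternative analyses.

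**Figure D1:**
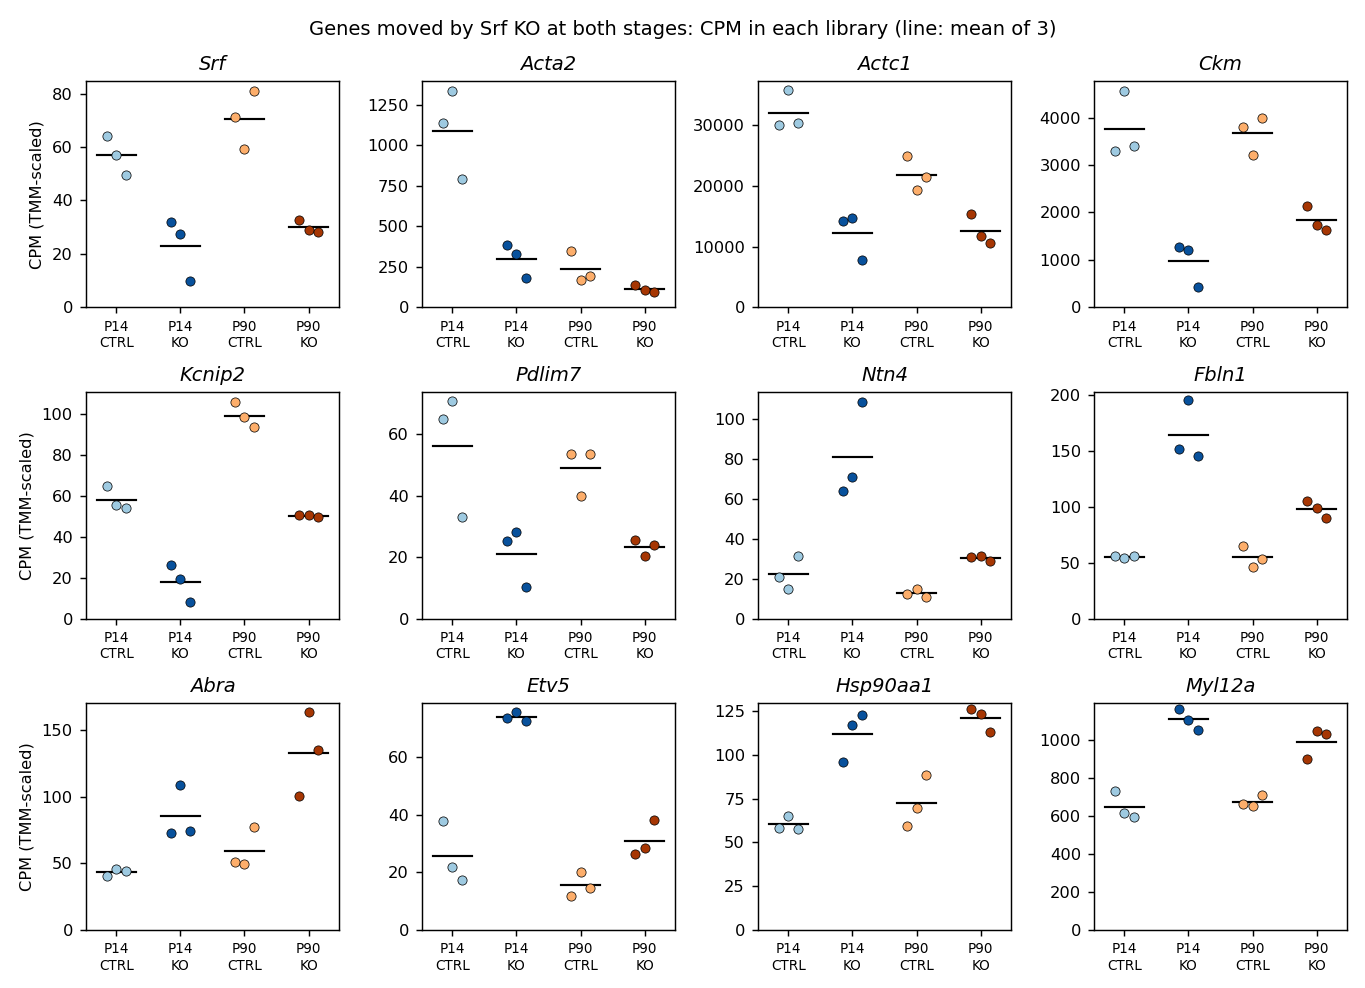
Expression in each of the 12 libraries (vertical axis, TMM-scaled CPM from 0; one point per library, line at the mean of 3) for 12 genes moved by Srf KO at both stages. In each panel the KO points lie on 1 side of the CTRL points of the same stage, and Srf, for example, falls from 49.4 to 64.0 CPM in P14 CTRL to between 9.75 and 32.1 CPM in P14 KO. For Acta2, Ckm, Kcnip2, Pdlim7, Ntn4, Fbln1, Abra and Etv5 this lack of overlap was a condition of the rule that named them.

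Over all genes, the common KO effect passed an adjusted p under 0.05 in edgeR's quasi-likelihood test for 883 of 12841 genes, or 6.88%. Of these, 424 were lower in KO (3.3% of the genes tested) and 459 were higher (3.57%). The 2 stages had the same sign in 880 of the 883, but a shared estimate favours genes of like sign, and 56.4% of all genes tested had the same sign. The 3 exceptions, Gm12409, Cdh3 and Odf3l1, had few counts. Changes were mostly below 2-fold, since 31 genes fell and 86 rose by at least that much in the common effect, and 9 and 24 did so at both stages. The count rested on individual libraries. It was 289 without P14 KO replicate 2, 390 without P14 KO replicate 3, 554 without P14 CTRL replicate 1 and 585 without P14 KO replicate 1, and 108 (33 lower, 75 higher) with the 3 libraries that had Y-linked counts left out.

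How far each stage carried the common effect was then examined. After adjustment, the effect at a single stage passed in edgeR for 2088 of all 12841 genes tested at P14 and for 3 at P90. Of the 883 genes, 864 had an unadjusted p under 0.05 for the P14 effect and 509 for the P90 effect, and 489 had it at both stages with the same sign, or 55.4%, against 535 of all genes tested, or 4.17%. The 883 were selected on these same counts, so these shares are not independent support. KO and CTRL libraries did not overlap, in the same direction at both stages, for 576 of the 883 genes (291 lower, 285 higher). Over all genes tested this held for 834, or 6.49%. The stricter question, whether a gene changed at both stages after adjustment of the larger of its 2 p-values, was met by 0 genes in edgeR (0%, smallest adjusted p = 0.197), by 28 in DESeq2 and by 12 in edgeR without the filter on low counts. A called gene is therefore one whose 2 stages together passed the test, and for 374 of the 883 the P90 effect taken alone did not reach an unadjusted p under 0.05.

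The change was usually larger in neonatal CMs. The absolute log2 fold change was larger at P14 in 747 of the 883 called genes and at P90 in 136, where 60.9% of all genes tested were larger at P14. Its median over called genes was 0.67 at P14 and 0.36 at P90, against 0.25 and 0.17 over all genes tested. The difference between the stages itself, an interaction term, passed an adjusted p under 0.05 in edgeR for 228 genes, or 1.78% of those tested. The count was 916 in DESeq2 and ran from 4 (without P90 KO replicate 2) and 5 (without P90 CTRL replicate 3) to 377 (without P14 CTRL replicate 1), and leaving out any library other than P90 KO replicate 3 moved it by over 1.5 times. In the edgeR test of all libraries it passed for 72 of the 883 called genes, 70 of them with the larger change at P14 and 2 with the larger change at P90.

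**Figure D2:**
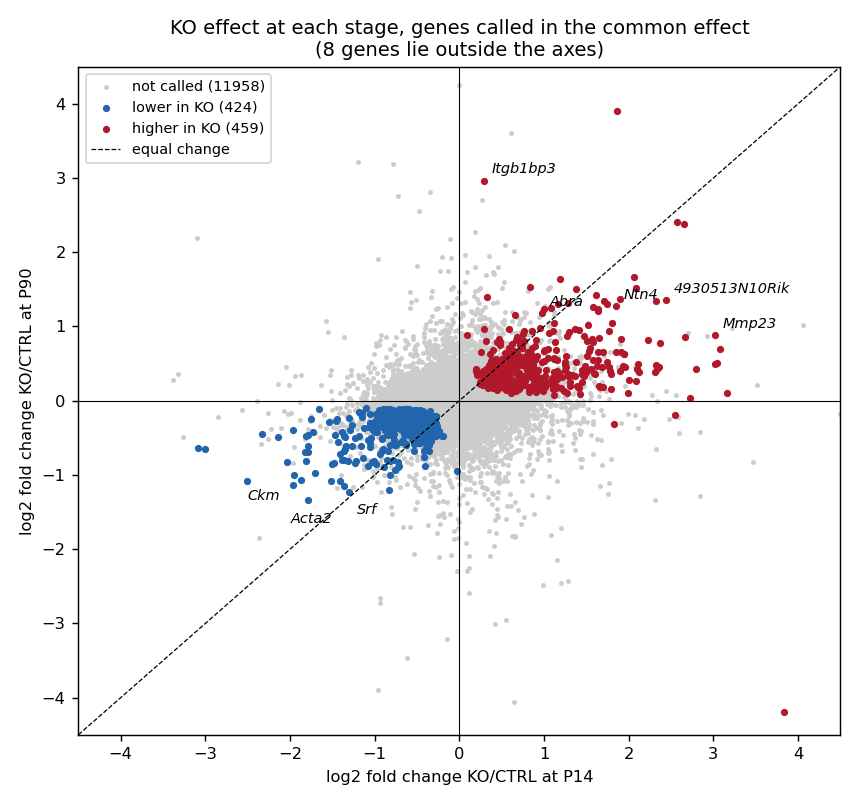
Log2 fold change KO/CTRL at P14 (horizontal axis) against that at P90 (vertical axis) for each gene tested, with the 424 genes called lower in blue, the 459 called higher in red and the others in grey; the dashed line marks equal change, and 8 genes lie outside the axes. Most called genes lie between the horizontal axis and the dashed line, so their change was larger at P14.

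Of the actin genes, Acta2, Actc1 and Actg1 were called lower in KO. Actb, the other cytoplasmic actin, and Acta1, skeletal actin, did not pass, with common log2 fold changes of -0.38 ± 0.22 (SE) and -0.47 ± 0.36 (SE), and Actg2, at 0.34 ± 0.43 (SE), had few counts. Of 44 genes listed as SRF and MRTF targets of the actin cytoskeleton, 7 were called lower and 4 higher (6.88% of all genes were called), with a median log2 fold change of -0.03 beside -0.0049 over all genes tested. Without P14 KO replicate 3 the calls were 7 lower and 3 higher. Acta2, smooth muscle actin, which immature CMs also express, was at 1137, 1334 and 795 CPM in CTRL and 382, 329 and 184 CPM in KO at P14. In adult CMs it stood at 346, 172 and 194 CPM in CTRL and 137, 108 and 95.1 CPM in KO. KO and CTRL did not overlap at either stage, although the level was lower at P90 than at P14 in both genotypes, and the log2 fold change was -1.87 ± 0.30 (SE) at P14 and -1.07 ± 0.30 (SE) at P90 (common effect -1.47 ± 0.24 (SE), adjusted p = 0.00526, edgeR). Actc1, the cardiac actin of the thin filament, was at 30004, 35794 and 30226 CPM in CTRL and 14269.9, 14706 and 7789 CPM in KO at P14. At the adult stage the values were 24808, 19246 and 21420.4 CPM in CTRL and 15379.6, 11815 and 10526 CPM in KO. It was among the most abundant transcripts and lay lower in every KO library, with a common log2 fold change of -1.09 ± 0.18 (SE) (adjusted p = 0.0055, edgeR). Actg1, a cytoplasmic actin, was at 207, 181 and 158 CPM in CTRL and 76.8, 92.3 and 37.04 CPM in KO at P14 and changed by -1.40 ± 0.24 (SE) at P14 and -0.72 ± 0.24 (SE) at P90 on the log2 scale.

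Pdlim7, a PDZ-LIM protein bound to actin at the Z-disc, was at 64.9, 70.7 and 33.2 CPM in CTRL and 25.3, 28.05 and 10.2 CPM in KO at P14. Its P90 levels were 53.7, 39.9 and 53.6 CPM in CTRL and 25.5, 20.5 and 23.8 CPM in KO. Its log2 fold change was -1.41 ± 0.32 (SE) at P14 and -1.08 ± 0.33 (SE) at P90, and its common effect (-1.25 ± 0.23 (SE), adjusted p = 0.00981, edgeR) was close to that of Srf. The actin regulators Cnn2 (calponin), Dstn (the actin-severing protein destrin) and Wdr1 (a cofactor of cofilin) fell by less, with common log2 fold changes of -0.84 ± 0.20 (SE), -0.60 ± 0.13 (SE) and -0.44 ± 0.08 (SE). Members of the same list rose as well. Myl12a, a regulatory light chain of non-muscle myosin, was at 734, 615 and 596 CPM in CTRL and 1166, 1108 and 1056 CPM in KO at P14 and at 664, 651 and 712 CPM in CTRL and 898, 1050.0 and 1031 CPM in KO at P90. It was higher in every KO library, by 0.67 ± 0.09 (SE) on the log2 scale (adjusted p = 0.00188, edgeR). Lmod2, a nucleator of thin filaments, rose by 0.55 ± 0.10 (SE), Itga7, a laminin-binding integrin whose gene overlaps another on the other strand, by 0.44 ± 0.09 (SE) and Cfl1, the severing protein cofilin, by 0.46 ± 0.12 (SE).

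Sarcomere genes moved in both directions. Among 26 genes of contractile proteins, 6 were called lower and 3 higher, or 34.6% beside 6.88% of all genes tested. Their median log2 fold change was -0.0050. Without P14 KO replicate 2 the calls were 3 lower and 2 higher. Myl3, the ventricular essential light chain, was at 9769, 12682 and 9707 CPM in CTRL and 4946, 4939 and 2854 CPM in KO at P14. Adult libraries had 8956, 8112 and 9258 CPM in CTRL and 6739, 5682 and 4823 CPM in KO. The KO libraries were below the CTRL libraries at both stages, with a common log2 fold change of -0.97 ± 0.18 (SE) (adjusted p = 0.0092, edgeR). Tnnc1, the calcium-binding troponin subunit, changed by -1.47 ± 0.21 (SE) at P14 and -0.46 ± 0.21 (SE) at P90 on the log2 scale, and Myh6, the main myosin heavy chain of the adult mouse heart, by -0.65 ± 0.13 (SE) at P14 and -0.45 ± 0.13 (SE) at P90. Myom1, which crosslinks thick filaments at the M-band, fell by nearly the same amount at the 2 stages (-0.50 at P14 and -0.48 at P90). Ttn, the spring protein titin, was at 8653, 5119 and 7539 CPM in CTRL and 6368, 4264 and 5476 CPM in KO at P14, where the groups overlapped, and at 3134, 4238 and 4989 CPM in CTRL and 1939, 1820.3 and 2954 CPM in KO at P90, where they did not. Its common log2 fold change of -0.64 ± 0.18 (SE) barely passed (adjusted p = 0.0494, edgeR) and was -0.19 after a correction for gene length. Mybpc3, myosin-binding protein C, rose by 0.34 ± 0.09 (SE) (adjusted p = 0.0464, edgeR). Tnni1, the slow skeletal troponin I of immature CMs, was called higher because of P14 alone. It was at 66.3, 30.9 and 84.9 CPM in CTRL and 294, 315 and 589.8 CPM in KO at P14 and at 0.206, 0.435 and 0.316 CPM in CTRL and 0.0628, 0.323 and 0.555 CPM in KO at P90, near the floor of 3 counts.

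At the Z-disc, costamere and intercalated disc, 1 of 31 genes was called lower and 5 higher, or 19.4% beside 6.88% of all genes tested. Csrp3, the muscle LIM protein of the Z-disc, was at 1839, 1834 and 1727 CPM in CTRL and 2763, 2823 and 2475 CPM in KO at P14. At P90 it was at 1673, 1633 and 2048 CPM in CTRL and 2401, 2328 and 2308 CPM in KO. It was higher in every KO library, by 0.49 ± 0.09 (SE) on the log2 scale (adjusted p = 0.00899, edgeR), and passed in 22 of 22 alternatives. Tcap, which anchors titin, rose more at P90 (0.36 at P14 and 0.63 at P90), while the adhesion protein Cdh2, N-cadherin, rose more at P14 (0.53 at P14 and 0.24 at P90). Pdlim1 and Synpo2l, both actin-binding proteins, had common log2 fold changes of 0.40 ± 0.10 (SE) and 0.50 ± 0.13 (SE) but overlapped at P90, and Capzb, which caps actin filaments at the Z-disc, was the gene called lower at -0.38 ± 0.10 (SE). The list held 0 lower calls in edgeR and 1 to 3 higher ones without P14 CTRL replicate 1 or 3 or P14 KO replicate 2 or 3.

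**Figure D3:**
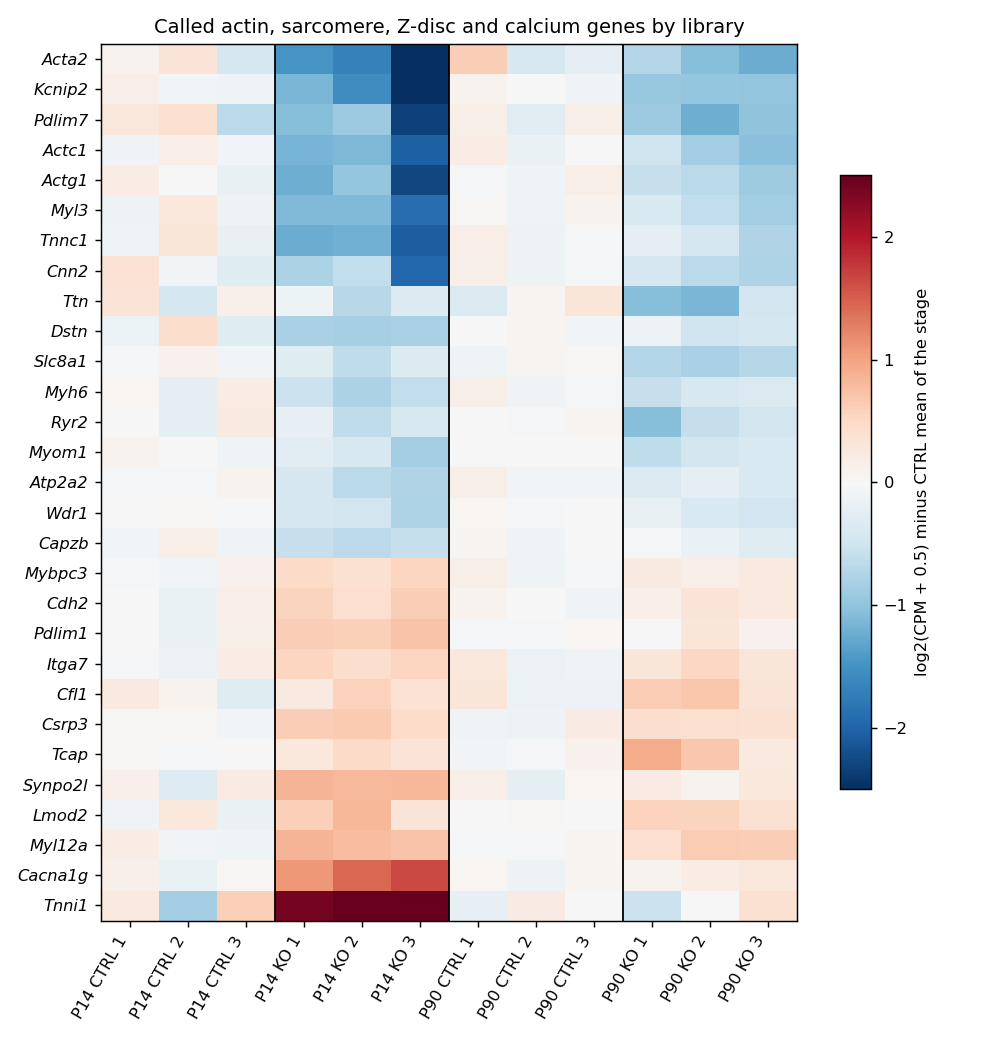
Level of the 29 called genes of the actin, sarcomere, Z-disc and calcium lists in each library, as log2(CPM + 0.5) minus the mean of the CTRL libraries of the same stage (blue lower, red higher, colours ending at 2.5 either way; values run from -2.72 to 3.39). Most of the 17 genes called lower are darkest in P14 KO replicate 3, and Tnni1 in the last row is dark in P14 KO but not in P90 KO.

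Most called genes of excitation and calcium cycling were lower. In the list of calcium handling and T-tubule genes, 4 of 28 were called lower and 1 higher, with a median log2 fold change of -0.12, and in the list of other ion channels and pumps 5 of 28 were called lower and 0 higher (1 at an unadjusted p under 0.05, and 0 in DESeq2). Each list had 17.9% called, beside 6.88% of all genes tested. Kcnip2, the accessory subunit of the channels that carry the transient outward potassium current, was at 64.9, 55.4 and 53.996 CPM in CTRL and 25.96, 19.3 and 8.34 CPM in KO at P14. The P90 libraries held 106, 98.4 and 93.5 CPM in CTRL and 50.8, 50.5 and 49.6 CPM in KO. Every KO library lay below every CTRL library of its stage, and the log2 fold change was -1.70 ± 0.27 (SE) at P14 and -0.98 ± 0.26 (SE) at P90 (edgeR adjusted p of the common effect 0.00475). Kcnd2, the pore subunit that this protein binds, was at 22.7, 33.2 and 35.7 CPM in CTRL and 14.9, 13.9 and 8.49 CPM in KO at P14 and at 45.2, 46.5 and 42.5 CPM in CTRL and 34.7, 33.6 and 34.1 CPM in KO at P90. It too was lower without overlap at both stages, with a common log2 fold change of -0.83 ± 0.18 (SE) (adjusted p = 0.0182, edgeR).

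Slc8a1, the sodium-calcium exchanger of the cell surface, was at 232, 257 and 226 CPM in CTRL and 193, 153 and 187 CPM in KO at P14. In adult CMs it stood at 185, 211 and 205 CPM in CTRL and 119.9, 114 and 121 CPM in KO. Unlike most called genes it had the larger estimate at P90 (-0.42 ± 0.10 (SE) at P14 and -0.76 ± 0.11 (SE) at P90), although the difference between the stages did not pass (interaction, edgeR adjusted p = 0.243). Ryr2, the calcium release channel, had the same order (-0.42 at P14 and -0.68 at P90) and overlapped at P14. Atp2a2, the calcium pump of the sarcoplasmic reticulum, changed by -0.61 ± 0.11 (SE) at P14 and -0.32 ± 0.11 (SE) at P90. Abcc9, a regulatory subunit of ATP-sensitive potassium channels, fell by nearly equal amounts at both stages (-0.44 at P14 and -0.47 at P90), with another gene on its opposite strand. Scn4b, a sodium channel subunit, changed by -0.86 ± 0.23 (SE) with overlap at P90. Cacna1g, a T-type calcium channel of immature CMs, was the gene called higher, and its log2 fold change was 1.41 ± 0.14 (SE) at P14 and 0.18 ± 0.14 (SE) at P90. Without P14 KO replicate 2 the channel list held 0 calls in edgeR, and it held 3 without P14 KO replicate 1 or 3, P90 CTRL replicate 1 or P90 KO replicate 3. Without P14 KO replicate 2 the calcium list held 2 lower and 0 higher.

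Energy metabolism was examined list by list. Ckm, the muscle creatine kinase that buffers ATP, was at 3295, 4562 and 3404 CPM in CTRL and 1265, 1212 and 438 CPM in KO at P14. At the adult stage the values were 3800.2, 3218 and 3982 CPM in CTRL and 2128, 1735 and 1636 CPM in KO. KO and CTRL did not overlap at either stage, and the log2 fold change was -1.95 ± 0.30 (SE) at P14 and -1.0003 ± 0.29 (SE) at P90 (common effect -1.48 ± 0.25 (SE), adjusted p = 0.00625, edgeR). Of 22 genes of creatine, adenylate and NAD metabolism, 3 were called lower and 1 higher, or 18.2% beside 6.88% of all genes tested. Without P14 KO replicate 2 a single gene of the list was called, lower in KO. Nampt, the salvage enzyme of NAD synthesis, had a common log2 fold change of -0.57 ± 0.14 (SE) with overlap at P90. Itgb1bp3, also called Nmrk2, a nicotinamide riboside kinase, was the gene called higher, and it moved at P90 rather than at both stages, at 32.02, 61.3 and 25.9 CPM in CTRL and 37.5, 67.1 and 41.8 CPM in KO at P14 and 17.1, 22.7 and 17.9 CPM in CTRL and 134, 159 and 154 CPM in KO at P90.

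Breakdown of branched-chain amino acids was led by Ppm1k, the phosphatase that activates the branched-chain ketoacid dehydrogenase. It was at 36.9, 48.3 and 34.9 CPM in CTRL and 22.9, 20.8 and 20.01 CPM in KO at P14 and at 134, 148 and 132 CPM in CTRL and 86.1, 82.1 and 91.7 CPM in KO at P90. It was lower in every KO library of its stage, with a common log2 fold change of -0.79 ± 0.09 (SE) (adjusted p = 0.00124, edgeR), and it passed in 22 of 22 alternatives. In its list 6 of 23 genes were called lower and 0 higher (0 at an unadjusted p under 0.05, and 0 in DESeq2), or 26.1% beside 6.88% of all genes tested. The median was -0.27, with -0.55 at P14 and -0.03 at P90. Dbt, a subunit of that dehydrogenase, changed by -0.59 at P14 and -0.29 at P90, and Aldh6a1, an enzyme of valine breakdown whose gene overlaps another on the other strand, by -0.96 at P14 and -0.27 at P90. The count fell to 2 lower without P14 KO replicate 2 and to 3 lower without P14 CTRL replicate 1 or 3 or P14 KO replicate 1 or 3.

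Mitochondrial lists had lower medians at P14 than at P90. In the tricarboxylic acid cycle 7 of 24 genes were called lower, or 29.2% beside 6.88% of all genes tested, with medians of -0.69 at P14 and -0.05 at P90. The call was lost for all 7 (0 in edgeR) without P14 KO replicate 3, without P14 KO replicate 2 and without P14 KO replicate 1. It was also lost for all 7 with a block for replicate number. That block likewise left 0 lower calls among the oxidative phosphorylation and mitochondrial ribosomal protein genes described below. The count was 2 without P14 CTRL replicate 1, 1 without P14 CTRL replicate 3, 4 without P90 KO replicate 3 and 11 without P90 KO replicate 1, and it was 15 in DESeq2, 13 after the gene-length correction and 19 for the mean of the 2 stage effects. Cs, citrate synthase, changed by -0.72 ± 0.11 (SE) at P14 and -0.18 ± 0.11 (SE) at P90 and Sdha, the catalytic subunit of succinate dehydrogenase, by -0.63 ± 0.10 (SE) at P14 and -0.18 ± 0.10 (SE) at P90. Of 84 nuclear genes of oxidative phosphorylation, 2 were called lower and 1 higher, or 3.57%, below the 6.88% of all genes tested. The lower calls were 14 in DESeq2, 19 for the mean of the 2 stage effects, 30 after the gene-length correction and 10 without P90 KO replicate 1, and 0 in edgeR (19 at an unadjusted p under 0.05 with all libraries) without P14 CTRL replicate 1 or 3, any 1 P14 KO library or P90 KO replicate 2 or 3. Cox8a, a small subunit of cytochrome c oxidase, was that higher gene, and it moved at both stages. It was at 146, 198 and 107 CPM in CTRL and 205, 234 and 252 CPM in KO at P14 and at 149.6, 102 and 112 CPM in CTRL and 224, 219 and 177 CPM in KO at P90. Its KO libraries lay above the CTRL libraries at both stages, by 0.69 ± 0.14 (SE) on the log2 scale (adjusted p = 0.0141, edgeR), where the list had medians of -0.64 at P14 and 0.14 at P90. Among 76 mitochondrial ribosomal protein genes 5 were called lower and 0 higher (0 at an unadjusted p under 0.05, and 0 in DESeq2), or 6.58%, near the 6.88% of all genes tested. The lower calls were 9 in DESeq2, 24 after the gene-length correction and 12 without P90 KO replicate 1, 1 to 3 without P14 CTRL replicate 1 or 3, P14 KO replicate 1 or P90 KO replicate 2 or 3, and 0 in edgeR without P14 KO replicate 2 or 3 (22 at an unadjusted p under 0.05 with all libraries). Fatty acid uptake and oxidation had 0 of 30 called in edgeR (15 lower and 1 higher at an unadjusted p under 0.05, 8 lower in DESeq2). Its medians of -0.56 at P14 and 0.02 at P90 lay on either side of 0. Cytosolic ribosomal proteins had 0 of 81 called in edgeR (1 lower and 2 higher unadjusted, 1 higher in DESeq2), with medians of -0.17 at P14 and 0.38 at P90. Ppargc1b, a coactivator of mitochondrial biogenesis, fell at both stages, by -0.78 ± 0.12 (SE) at P14 and -0.35 ± 0.12 (SE) at P90 on the log2 scale. Of 30 genes of glucose uptake, glycolysis and glycogen, 2 were called lower, or 6.67%, near the 6.88% of all genes tested. These were Ugp2, which makes the glucose donor for glycogen, at -0.63 ± 0.13 (SE) and Gys1, muscle glycogen synthase, at -0.40 ± 0.11 (SE) with overlap at P90. Only 1 of them was called without P14 CTRL replicate 1 or 3, any 1 P14 KO library or P90 KO replicate 3.

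**Figure D4:**
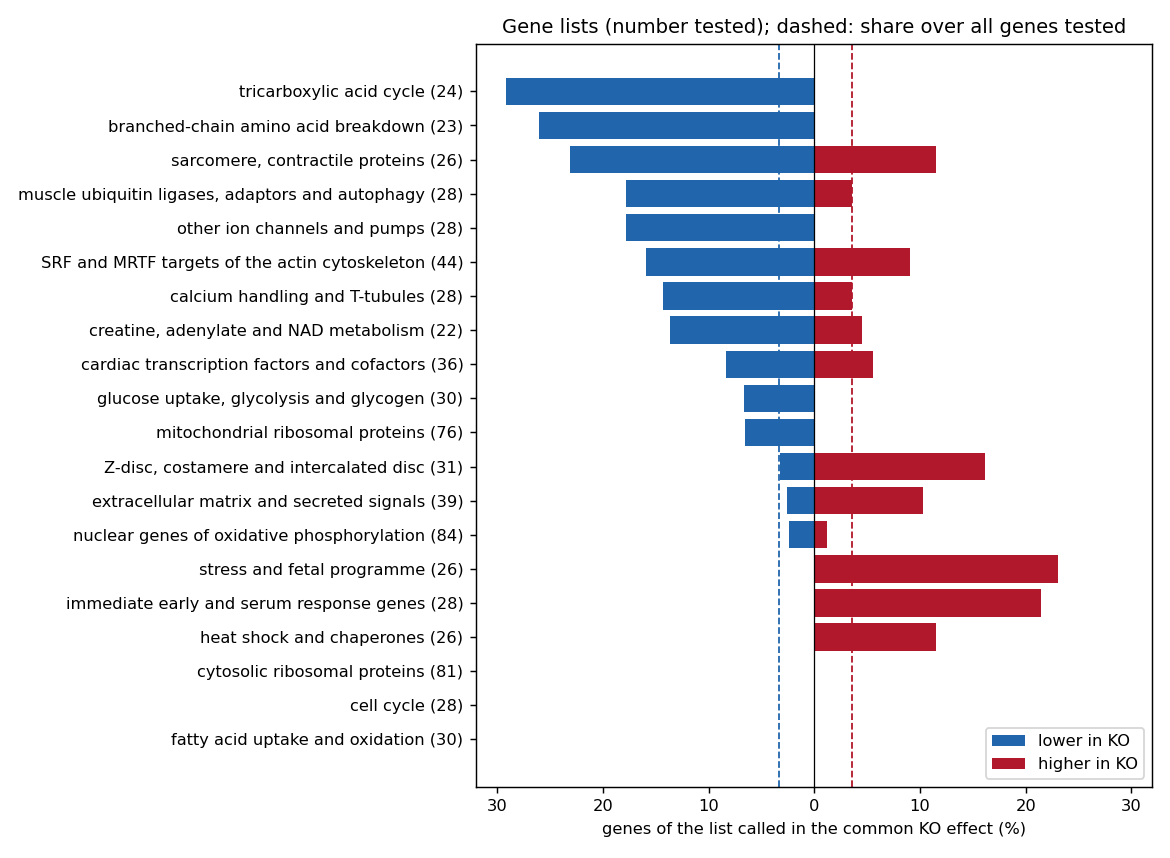
Share of each gene list called in the common KO effect (horizontal axis, percent; blue to the left lower in KO, red to the right higher in KO; number of genes tested in brackets), with dashed lines at the share of all genes tested, 3.3% lower and 3.57% higher. The tricarboxylic acid cycle list has the longest bar to the left with 7 of 24 genes, and the cell cycle, cytosolic ribosomal protein and fatty acid lists have no bar.

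The serum response genes that were called were higher in KO. The list of immediate early and serum response genes was not limited to known targets of SRF, and the genes called in it are not taken as such. Of its 28 genes, 0 were called lower in edgeR (0 at an unadjusted p under 0.05, and 0 in DESeq2) and 6 higher, with a median log2 fold change of 0.44 that was 0.15 at P14 and 0.76 at P90. The 6 were 21.4% of the list, beside 6.88% of all genes tested. Without P14 KO replicate 2, P90 CTRL replicate 1 or P90 KO replicate 2 the higher calls were 3. Cyr61, a matricellular protein, was at 148, 65.1 and 145 CPM in CTRL and 205, 399 and 166 CPM in KO at P14. Its P90 levels were 248, 388 and 447 CPM in CTRL and 571, 914 and 597 CPM in KO. KO lay above CTRL at both stages with a wide spread, and the common log2 fold change was 1.02 ± 0.25 (SE) (adjusted p = 0.0271, edgeR). Myc, the growth transcription factor, was at 4.08, 1.70 and 3.69 CPM in CTRL and 9.42, 12.1 and 10.4 CPM in KO at P14 and at 1.86, 0.87 and 1.74 CPM in CTRL and 1.95, 5.44 and 3.97 CPM in KO at P90, all low levels, with a common log2 fold change of 1.56 ± 0.27 (SE). Dusp6, a MAP kinase phosphatase, rose by 0.75 at P14 and 0.90 at P90 and Jund, a subunit of AP-1, by 0.72 at P14 and 0.75 at P90.

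Abra, also known as STARS, an actin-binding protein that promotes the entry of MRTFs into the nucleus, was at 40.4, 45.3 and 43.9 CPM in CTRL and 72.6, 108 and 74.5 CPM in KO at P14. Adult libraries had 50.7, 49.2 and 76.98 CPM in CTRL and 101, 164 and 135 CPM in KO. It was higher in every KO library by similar amounts at the 2 stages (0.98 ± 0.21 (SE) at P14 and 1.17 ± 0.21 (SE) at P90, edgeR adjusted p of the common effect 0.00224). Etv5, an ETS transcription factor induced by MAP kinase signalling, was at 37.8, 21.96 and 17.1 CPM in CTRL and 73.6, 75.6 and 72.5 CPM in KO at P14. At P90 it was at 11.9, 20.1 and 14.5 CPM in CTRL and 26.2, 28.5 and 38.01 CPM in KO. The P14 KO libraries were close to each other and far above CTRL, while the P90 groups were nearer, and the common log2 fold change was 1.28 ± 0.19 (SE) (adjusted p = 0.00374, edgeR).

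The rule for named genes takes those with the largest change at their weaker stage, among called genes whose KO and CTRL libraries did not overlap at either stage. The secreted proteins and the receptor among the 14 that rose most are given first, a grouping made after their values were seen. Ntn4, a netrin related to laminins, was at 20.9, 15.1 and 31.5 CPM in CTRL and 64.2, 70.8 and 109 CPM in KO at P14. The P90 libraries held 12.1, 14.9997 and 10.8 CPM in CTRL and 31.03, 31.5 and 28.9 CPM in KO. It rose by 1.85 ± 0.24 (SE) at P14 and 1.28 ± 0.25 (SE) at P90 on the log2 scale, with an edgeR adjusted p of 0.00124 for the common effect. Fbln1, the matrix glycoprotein fibulin, was at 55.7, 54.2 and 56.04 CPM in CTRL and 151, 195 and 145 CPM in KO at P14 and at 64.5, 46.2 and 53.4 CPM in CTRL and 105, 98.9 and 89.99 CPM in KO at P90. The CTRL libraries of the 2 stages overlapped, and KO was higher by 1.57 ± 0.14 (SE) at P14 and 0.84 ± 0.14 (SE) at P90. Masp1, a serine protease of the lectin pathway of complement, changed by 1.91 ± 0.18 (SE) at P14 and 0.83 ± 0.19 (SE) at P90 and Pth1r, the receptor for parathyroid hormone, by 1.27 ± 0.23 (SE) at P14 and 0.87 ± 0.25 (SE) at P90. Mmp23, a metalloproteinase, was at 2.72, 2.25 and 2.93 CPM in CTRL and 14.4, 24.5 and 25.3 CPM in KO at P14 and at 2.01, 1.63 and 1.98 CPM in CTRL and 3.20, 4.15 and 3.09 CPM in KO at P90, and it rose by 3.02 at P14 and 0.89 at P90 on the log2 scale. In the list of extracellular matrix and secreted signals 4 of 39 genes were called higher and 1 lower, or 12.8% beside 6.88% of all genes tested. The calls were 2 higher and 1 lower without P14 KO replicate 2, P90 CTRL replicate 1 or P90 KO replicate 2. Tgfb3 and the protease Adamts1 were among those higher, at 0.87 ± 0.17 (SE) and 0.90 ± 0.22 (SE), and Timp2, an inhibitor of metalloproteinases, was the gene called lower, at -0.78 ± 0.25 (SE) at P14 and -0.80 ± 0.26 (SE) at P90.

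Because fibroblasts make many matrix proteins, markers of other cells were set beside these values. The sum of the 10 fibroblast markers overlapped between the genotypes at both stages. It ran from 169 to 388 CPM in CTRL and from 285 to 460.3 CPM in KO at P14, and from 121 to 151 CPM and 105 to 172 CPM at P90. Of the single markers, Gsn did not overlap at P14, at 57.1, 47.7 and 66.9 CPM in CTRL and 87.1, 102 and 87.7 CPM in KO. None of the 9 tested was called in edgeR, with 1 higher and 0 lower at an unadjusted p under 0.05 and 0 called in DESeq2. The sum of endothelial markers overlapped too, between 291 and 604 CPM in CTRL and 323 and 527 CPM in KO at P14, and between 256 and 325 CPM and 261 and 390.4 CPM at P90. Egfl7 and Emcn lay higher in every KO library at P90, and the median log2 fold change of the list was 0.0076 at P14 and 0.23 at P90. Of the 10 tested, 0 were called in edgeR, 0 had an unadjusted p under 0.05 and 0 were called in DESeq2. Leukocyte markers summed to at most 15.2 CPM and Schwann cell and nerve markers to at most 12.5 CPM in any library, and 4 of 7 erythroid markers were at 0 in all of them. Smooth muscle and pericyte markers summed to between 3015 and 3766 CPM in CTRL and 2089 and 2662 CPM in KO at P14, without overlap, and to between 2825 and 3540 CPM and 3049 and 3564 CPM at P90. Des and Acta2 made up most of this sum, at 2205 and 1143 CPM in P14 CTRL replicate 1. At P14 Acta2 was lower in KO without overlap, whereas Des overlapped. Myh11, Tagln, Cnn1 and Rgs5 were at 8.22, 3.07, 1.37 and 24.7 CPM in the same library and overlapped between the genotypes at P14. Of these 10 markers Acta2 alone was called, and Cspg4, of pericytes, was higher at an unadjusted p under 0.05, with a log2 fold change of 1.34 ± 0.21 (SE) at P14 and -0.08 ± 0.22 (SE) at P90. The part that other cells had in the rise of matrix genes was not tested further.

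Other genes that rose at both stages by the same rule were of several kinds. 4930513N10Rik (chromosome 8, 95806830 to 95821728, plus strand) ranked first, at 8.45, 8.30 and 6.14 CPM in CTRL and 38.8, 46.998 and 39.1 CPM in KO at P14. In adult CMs it stood at 5.002, 4.78 and 3.32 CPM in CTRL and 14.1, 11.4 and 8.02 CPM in KO. The libraries were far apart, with 2.44 ± 0.21 (SE) at P14 and 1.35 ± 0.22 (SE) at P90 on the log2 scale (edgeR adjusted p of the common effect 0.00124). Slc22a17, a receptor for lipocalin, rose by 1.71 ± 0.32 (SE) at P14 and 1.34 ± 0.40 (SE) at P90 and Hmgn3, a nucleosome-binding protein, by 1.08 ± 0.19 (SE) at P14 and 1.25 ± 0.25 (SE) at P90. Hmgn3 had the larger estimate at P90, from a level of 1.19 to 1.65 CPM in CTRL. Gm12295, Mob3a, a MOB family protein, and Morn4 rose as well, with common log2 fold changes of 1.47 ± 0.17 (SE), 0.86 ± 0.12 (SE) and 0.78 ± 0.16 (SE). Morn4 was the last gene taken, with a change of 0.77 at its weaker stage, and Scx, at 0.76, was the first left out.

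Genes that fell most at both stages, beyond those above, included regulators and uncharacterised transcripts. Fbxl22, an F-box protein of the Z-disc whose promoter stretch is printed above, was at 226, 276 and 179 CPM in CTRL and 105, 101 and 38.9 CPM in KO at P14. At the adult stage the values were 164, 92.9 and 128 CPM in CTRL and 88.8, 65.8 and 60.5 CPM in KO. Its common log2 fold change was -1.16 ± 0.24 (SE) (adjusted p = 0.0142, edgeR), and its reads could be shared with Herc1 on the other strand. Pnck, a calcium/calmodulin-dependent protein kinase, was at 6.39, 8.05 and 7.02 CPM in CTRL and 3.51, 3.11 and 2.48 CPM in KO at P14 and at 11.1, 10.4 and 12.6 CPM in CTRL and 7.79, 5.72 and 5.55 CPM in KO at P90, without overlap. Dact3, an inhibitor of Wnt signalling, changed by the same amount at both stages (-0.89 ± 0.28 (SE) at P14 and -0.89 ± 0.29 (SE) at P90), as did the zinc finger gene Zfp442 (-0.81 ± 0.26 (SE) at P14 and -0.81 ± 0.25 (SE) at P90). Gm14420 changed by -0.82 ± 0.19 (SE) at P14 and -1.0038 ± 0.19 (SE) at P90, and as both belong to families of near-identical copies their counts are uncertain. Prrg1, a transmembrane protein with a vitamin K-dependent domain, changed by -1.16 ± 0.25 (SE), Prune2 by -1.05 ± 0.21 (SE), C230091D08Rik by -0.93 ± 0.22 (SE) and 1700113I22Rik, which overlaps Rundc1 on the other strand, by -1.31 ± 0.26 (SE). Prune2 closed the list, with a change of 0.81 at its weaker stage, and Fv1, at 0.80, was the first left out.

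**Figure D5:**
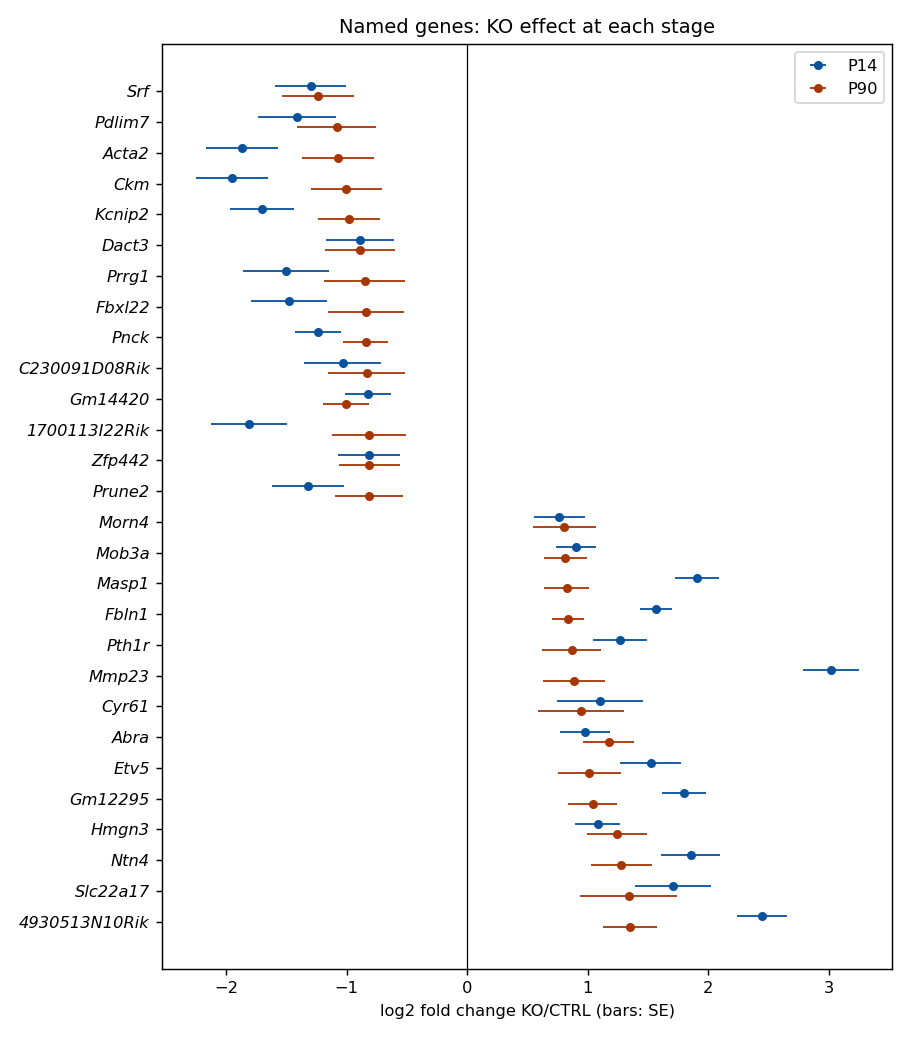
Log2 fold change KO/CTRL at P14 (blue) and at P90 (orange) with its SE (bars) for the 28 genes that fell or rose most at both stages, ordered by the change at the weaker stage from both ends. Every point lies on the same side of 0 at both stages, as the rule requires, and the P14 point is farther from 0 for most genes, for example 3.02 against 0.89 for Mmp23.

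Stress, protein quality and transcription factor genes completed the lists. Hsp90aa1, a cytosolic chaperone, was at 58.4, 64.9 and 57.4 CPM in CTRL and 95.7, 117 and 123 CPM in KO at P14. Its P90 levels were 59.6, 69.3 and 88.2 CPM in CTRL and 126, 123 and 113 CPM in KO. It was higher without overlap at both stages, by 0.89 ± 0.14 (SE) at P14 and 0.74 ± 0.14 (SE) at P90 on the log2 scale (edgeR adjusted p of the common effect 0.00124). It was 1 of 3 genes called higher among 26 heat shock genes, or 11.5% beside 6.88% of all genes tested, with 0 lower in edgeR (3 lower at an unadjusted p under 0.05, 1 lower in DESeq2). The others were Hspb7, a small chaperone of muscle (1.11 at P14 and 0.30 at P90), and Dnajb1, a cochaperone (0.33 at P14 and 1.39 at P90), each of which overlapped at 1 stage. The higher calls were 1 without P14 CTRL replicate 1, P14 KO replicate 2 or P90 CTRL replicate 2 and 5 without P14 CTRL replicate 2. Of 26 genes of the stress and fetal programme, 6 were called higher and 0 lower in edgeR (1 lower at an unadjusted p under 0.05, 1 lower in DESeq2), with medians of 0.63 at P14 and 0.22 at P90. The 6 were 23.1% of the list, beside 6.88% of all genes tested. The higher calls were 3 without P14 CTRL replicate 1, P14 KO replicate 2 or P14 KO replicate 3. Hmox1, heme oxygenase, had a common log2 fold change of 1.11 ± 0.26 (SE), with 1.64 at P14 and 0.54 at P90. Rcan1, an inhibitor of calcineurin, had 0.84 ± 0.17 (SE), with 1.33 at P14 and 0.35 at P90, where its libraries overlapped. Inhba, a subunit of activin, had a log2 fold change of 3.02 ± 0.44 (SE) at P14 and 0.50 ± 0.72 (SE) at P90, with P90 levels under 1 CPM. Tgfb2, a growth factor ligand, had 2.0026 ± 0.15 (SE) at P14 and 0.28 ± 0.16 (SE) at P90.

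Among 28 muscle ubiquitin ligases, adaptors and autophagy genes, 5 were called lower and 1 higher, or 21.4% beside 6.88% of all genes tested. The calls were 2 or 3 in all without P14 CTRL replicate 1, any 1 P14 KO library, P90 CTRL replicate 1 or P90 KO replicate 2. Kbtbd12 and Kbtbd13, both BTB-Kelch proteins, fell at both stages. Kbtbd12 was at 36.1, 42.2 and 37.4 CPM in CTRL and 27.1, 25.4 and 22.1 CPM in KO at P14 and at 40.999, 36.96 and 36.2 CPM in CTRL and 26.1, 25.6 and 24.05 CPM in KO at P90, with a common log2 fold change of -0.61 ± 0.08 (SE) (adjusted p = 0.00174, edgeR). Kbtbd13 changed by -1.36 ± 0.22 (SE) at P14 and -0.80 ± 0.20 (SE) at P90, whereas Asb14, an ankyrin repeat protein, changed by -1.65 ± 0.11 (SE) at P14 and -0.11 ± 0.11 (SE) at P90 and thus mainly at P14. Of 36 cardiac transcription factors and cofactors, Srf among them, 3 were called lower and 2 higher, or 13.9% beside 6.88% of all genes tested. Gata6 and Hand2, both regulators of heart development, were the higher ones. Gata6 was at 176, 159.6 and 145 CPM in CTRL and 209, 214 and 219 CPM in KO at P14 and at 85.04, 82.5 and 90.8 CPM in CTRL and 111, 98.1 and 116 CPM in KO at P90, and its common log2 fold change was 0.37 ± 0.07 (SE) (adjusted p = 0.0122, edgeR). Hand2 had 0.67 ± 0.17 (SE) at P14 and 0.51 ± 0.18 (SE) at P90. Cell cycle genes had 0 of 28 called in edgeR (0 lower and 1 higher at an unadjusted p under 0.05, 0 in DESeq2).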

How the data were processed

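RNA-seq of 12 sorted CM samples was analysed from 2 tables of raw counts that the authors deposited, 1 per stage. Per the labels and the submitters' processing notes, they aligned single-end reads to mm10 with STAR 2.5.3a and counted them per gene with featureCounts (Subread 1.5.2). The strand setting is not given in the sources used here, so counts of overlapping genes are uncertain. Both tables list 23337 gene symbols, 0 of them mitochondrial-chromosome genes, and 25 symbols had been turned into dates.

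Counts were joined by symbol and analysed in R 4.3.3 with edgeR 4.0.16. After the filterByExpr filter and TMM scaling, the common KO effect was tested in an additive model of stage and genotype over all 12 samples by the quasi-likelihood F-test, adjusted over 12841 genes by the Benjamini-Hochberg method, at an adjusted p under 0.05. A fit of 4 group means gave the effect at each stage, the interaction (P14 minus P90), and a test at both stages that adjusts the larger of the 2 p-values where the signs are the same. SEs were worked out from each log2 fold change and the F value. CPM were computed with the TMM-scaled library sizes of the joint fit. The levels and sums of the cell type markers were instead scaled over all 23337 genes before the filter. The 2 values of a gene such as Acta2 can therefore differ slightly. The scripts were tested on simulated counts.

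Named genes are Srf, the 14 that fell most and the 14 that rose most at their weaker stage among called genes with the same sign, a mean of 5 CPM or more and KO libraries all on 1 side of CTRL at either stage, up to 4 called members of each list, and called members of the actin, sarcomere, Z-disc and calcium lists. A gene of the channel list that the rule takes is not reported here. The genes, lists and tests were chosen with earlier results of these data known. Alternatives were RLE scaling, other filters, DESeq2 1.42.0, a replicate block, a term for Y-linked counts, the mean of the 2 stage effects, a gene-length correction, leaving out each library and, added after seeing the data, separate fits per stage and leaving out the libraries with Y-linked counts.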

Additional observations from a re-analysis of the deposited data

Results flagged for a closer look

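Among the 97 named genes, the interaction term passed an adjusted p under 0.05 in edgeR for 8, although their common effect was called. It passed for 72 of the 883 called genes, or 8.15%, and for 228 of all genes tested, or 1.78%. The count over all genes was 4 without P90 KO replicate 2 and 5 without P90 CTRL replicate 3, so these differences depend on single libraries. The P14 minus P90 difference in log2 fold change was positive for 4 of the 8 named genes, at 2.13 for Mmp23, 1.72 for Tgfb2, 1.24 for Cacna1g and 0.98 for Rcan1, all of which were higher in KO with the larger rise at P14. It was -1.54 for Asb14, -0.74 for Hibadh and -0.67 for Mrps27, which were lower in KO with the larger fall at P14. Itgb1bp3, at -2.67, rose mainly at P90. Hibadh, an enzyme of valine breakdown, changed by -0.89 at P14 and -0.15 at P90, and Mrps27, a mitochondrial ribosomal protein whose gene overlaps another on the other strand, by -0.85 at P14 and -0.18 at P90.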

How the results depend on the processing

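Of 2131 pairs of a named gene and an alternative, 1833 kept their direction and call, 298 kept the direction but lost the call and 0 reversed, and 38 of the 97 named genes passed in every alternative. The count of genes with a common effect (883) was 1667 in DESeq2, 1534 for the mean of the 2 stage effects, 1356 after the gene-length correction and 108 without the libraries with Y-linked counts, which kept 12% of the calls. Without 1 library it was between 289 and 1004. The count for both stages (0) was 12 without the filter on low counts and 28 in DESeq2, and 0 to 1 when leaving out 1 library (Kcnip2 without P14 KO replicate 3). Genes with an interaction (228 of all tested) numbered 474 without the filter, 391 among genes of at least 5 CPM, 86 with the Y-linked term and 15 without the libraries with Y-linked counts. Called genes with an interaction (72) numbered 141 without the filter, 114 among genes of at least 5 CPM, 311 in DESeq2, 41 with the Y-linked term, 172 for the mean of the stage effects and 1 without the libraries with Y-linked counts. Leaving out 1 library gave 3 (P90 KO replicate 2) to 52, and each library other than P14 CTRL replicate 1 and P90 KO replicate 3 moved it by over 1.5 times. Genes called across the lists (89) numbered 162 in DESeq2, 182 for the mean of the stage effects, 176 after the gene-length correction, 26 without the libraries with Y-linked counts and 36 to 117 without 1 library, with 36 without P14 KO replicate 2 and 54 without P14 KO replicate 3. The cause was not tested.

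Replicate numbers are shared by KO and CTRL. The correlation of deviations between same-numbered samples was 0.047, 0.148 and 0.360 at P14 and 0.181, 0.000 and 0.054 at P90. Between samples of different numbers it ran from -0.241 to 0.151 at P14 and from -0.253 to 0.173 at P90. Not every sample correlated best with its own number, so the numbers were not taken to pair the samples. Whether equal numbers mark a shared batch was not tested. With a replicate block the common effect was called for 543 genes and the interaction for 687 (228 without it), and 3 genes (Ntn4, Pdlim7 and 4930513N10Rik) were called at both stages, or 6 with the gene-length correction added to the block. Depth limits genes near the floor of 3 counts, such as Tnni1 and Inhba at P90.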
